A study of Mus musculus with 2 samples.

Results

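The sarcomere, the contractile unit of striated muscle, was followed through 10 of its genes in single-nucleus RNA libraries of mouse heart. The 10 genes were taken by symbol from the 32245 genes of the files: Myh6, Myh7 and Myh7b (myosin heavy chains), Myl2 and Myl7 (regulatory light chains), Tnnt2 and Tnni3 (troponin subunits of the thin filament), Mybpc3 (a regulator on the thick filament), Ttn (the elastic filament titin) and Tcap (a cap on titin at the Z disc). All 10 had UMIs in both libraries. There was 1 library per group, made with a 10x Genomics 3′ kit from nuclei of cardiac tissue of male C57Bl6/J mice aged 3.5 months. The CF-KI library came from the genotype Tcf21-MerCreMer;Nlrp3-A350V/A350V, in which NLRP3, the sensor of an inflammasome, is constitutively active in fibroblasts, and the control library from Tcf21-MerCreMer;Nlrp3-WT/WT. Both groups carried the tamoxifen-dependent Tcf21 Cre driver and received tamoxifen, so the altered allele is meant to act in fibroblasts and not in the cardiomyocytes that make the sarcomere, and the series record describes it as silent without Cre. How many animals went into a library was not given in the sources used here, and nothing below has a replicate check: no p-value is given, and every interval is a 95% interval of counting error only.

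In the sarcomere, myosin heavy chains pull on thin filaments of actin, while troponin and tropomyosin on the thin filament let calcium decide whether myosin can bind. Several parts come as isoforms that mark chamber and age: in the adult mouse heart Myh6 is the main heavy chain and Myh7 that of the fetal ventricle, which returns under load, while Myl7 marks atria and Myl2 ventricles. A nucleus holds new transcripts, spliced or not, whereas the cytoplasm of a cardiomyocyte holds large stores of mature sarcomere messenger RNA next to its mitochondria.

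The heavy chain genes each carry a microRNA in an intron, known for tying these genes to one another, and the mature sequences are shown because they share most of a seed. The libraries did not measure microRNAs. The capitals mark the seed, bases 2 to 8, with sequences from RefSeq on GRCm38.p6. The seeds of the microRNAs of Myh6 and Myh7 are the same, UAAGACG, and that of Myh7b is UAAGACU. Read 5′ to 3′, they are:
mmu-miR-208a-3p (in Myh6, chr14:54949072-54949093, minus strand): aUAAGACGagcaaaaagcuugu
mmu-miR-208b-3p (in Myh7, chr14:54975710-54975731, minus strand): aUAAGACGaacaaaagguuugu
mmu-miR-499-5p (in Myh7b, chr2:155622893-155622913, plus strand): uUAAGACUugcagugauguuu

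The 150 bases before the RefSeq start sites were searched on both strands for a TATA box (letters TATAAA), an MCAT element that TEAD factors bind (letters CATTCC) and a site of GATA factors (letters GATAAG). Entries were found for 9 of the 10 genes, 12 in all. No entry held TATAAA, 2 held CATTCC and 2 held GATAAG, while of all 32851 promoters of this length 7.57%, 7.59% and 3.75% did. Only 4 of the 9 genes had an entry that starts at the 5′ end of the gene in the GENCODE annotation. The 2 entries of Myl2 start 8227 and 7762 bases from that end, that of Tnni3 1701, the second of Tnnt2 635 and that of Myh6 320. For these entries, a missing motif says nothing of the bases before the annotated end. Myl7 held both CATTCC, 70 bases before its start, and GATAAG, 41 bases before it. Its sequence is shown because Myl7 had the strongest chamber pattern, and that of Tnnt2, with CATTCC 27 bases before the start, for comparison. The capitals mark these motifs. Mybpc3 held GATAAG 60 bases before its start.
Myl7 (chr11:5898783-5898932, minus strand): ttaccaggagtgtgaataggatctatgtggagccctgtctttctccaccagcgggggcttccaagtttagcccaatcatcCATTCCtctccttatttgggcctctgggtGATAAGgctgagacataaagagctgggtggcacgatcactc
Tnnt2 (chr1:135836184-135836333, plus strand): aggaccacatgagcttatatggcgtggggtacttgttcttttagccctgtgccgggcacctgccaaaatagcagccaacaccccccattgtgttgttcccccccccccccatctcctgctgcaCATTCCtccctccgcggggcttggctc

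Myh6 (ENSMUSG00000040752, chromosome 14, 54941921 to 54966927) and Myh7 (ENSMUSG00000053093, chromosome 14, 54970684 to 54994626) lie side by side on the minus strand of GRCm38 and are near-identical copies. How the counting split reads between them, or used strand, was not given in the sources used here, so levels of Myh7, the lower of the pair, are uncertain. Annotated genes also lie on the opposite strand of Myh7 (among them Mhrt), Myh6, Ttn, Myh7b (Trpc4ap) and Myl2 (Ccdc63), and Dnaaf3 overlaps Tnni3 on the same strand. Myl7 (ENSMUSG00000020469, chromosome 11, 5896637 to 5898782, minus strand), Tnnt2 (ENSMUSG00000026414, chromosome 1, 135836354 to 135852260, plus strand), Mybpc3 and Tcap overlap no other annotated gene.

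The libraries held 15077 barcodes with 21603653 UMIs (CF-KI) and 11257 barcodes with 18040776 UMIs (control), with medians of 1115 and 1158 UMIs per barcode. They shared 46 barcodes. The median mitochondrial share of UMIs was 14.2% and 3.46%. Barcodes were clustered without sarcomere genes and named from other markers. Cardiomyocyte-like clusters held 4230 and 2529 barcodes, of which 1676 (39.6%) and 2206 (87.2%) had at most 5% mitochondrial UMIs. These are called nuclei below. Most CF-KI nuclei (1489, 88.8%) fell in cluster 3 and most control nuclei (2060, 93.4%) in cluster 5, so a cluster here is close to a library. The mitochondria-rich set held 1333 and 145 of the 1434 and 165 barcodes with over 50% mitochondrial UMIs. All 13 cardiomyocyte markers were found in nuclei and in the mitochondria-rich set, and their summed level was 13672 and 11421 CPM in nuclei, 42296 and 41850 in the rich set and 8765 and 2380 in fibroblast-like barcodes. CPM, the unit of every level here, are UMIs per 1000000 non-mitochondrial UMIs. The summed level of the 10 fibroblast markers was 1606 and 968 CPM in nuclei and 7156 and 3827 in the rich set. Airway epithelial-like barcodes were counted only in the control (125).

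The 10 sarcomere genes made up 3.32% of non-mitochondrial UMIs in CF-KI nuclei and 3.91% in control nuclei. In the mitochondria-rich barcodes they made up 11.9% and 14.9%, and in fibroblast-like barcodes 1.58% and 0.496%. The order of these sets was therefore the same in each library, while CF-KI was lower than the control in the cardiomyocyte sets and higher in the fibroblast-like one. Per barcode, the median share was 3.17% in CF-KI nuclei and 3.43% in control nuclei, with 10th to 90th percentiles of 2.18% to 4.73% and of 2.11% to 6.15%, so nuclei of the 2 libraries overlapped widely. In the rich set the medians were 11.4% and 14.7%, with percentiles of 7.59% to 15.9% and of 9.88% to 19.6%. The rich and nuclear percentiles did not overlap within a library. Malat1, an abundant nuclear RNA, took 43.1% and 47.0% of UMIs in nuclei and 2.09% and 5.03% in the rich set. Without Malat1 the sarcomere share of nuclei was 5.84% and 7.37%, and that of the rich set 12.1% and 15.6%.

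**Figure D1:**
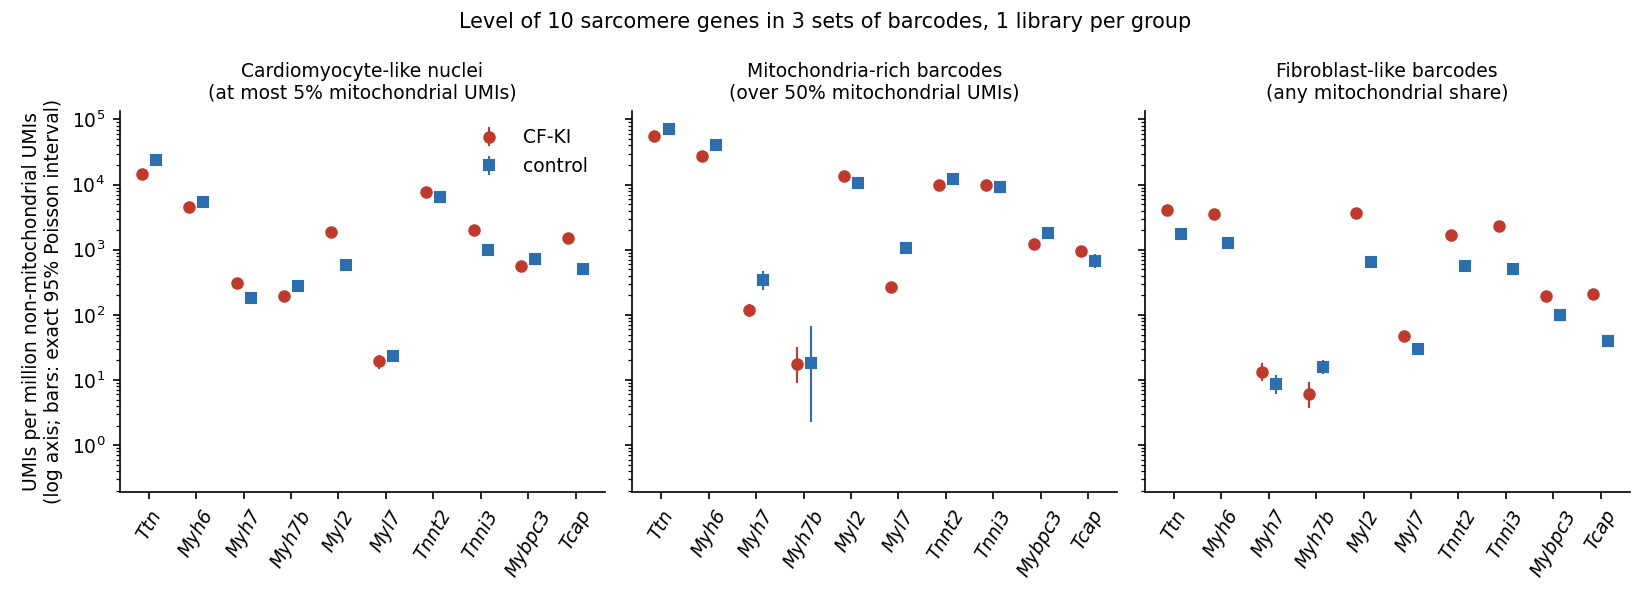
The level of each of the 10 genes, in CPM (UMIs per 1000000 non-mitochondrial UMIs) on a log axis, in nuclei, mitochondria-rich barcodes and fibroblast-like barcodes; bars are exact 95% Poisson intervals. Myl2 and Tnni3 are higher in CF-KI in all 3 sets (Tnni3 in mitochondria-rich barcodes by a margin that turned to -0.02 on the log2 scale under TMM scaling), whereas Ttn is lower in CF-KI in the first 2 and higher in fibroblast-like barcodes.

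In cardiomyocyte-like nuclei, the CF-KI library had more RNA of Myl2, Tcap and Tnni3 than the control and less of Ttn. Of the 10 genes, 5 were higher and 5 lower in CF-KI, with a median log2 ratio of 0.00 where the median of all 11795 genes compared was 0.11. Higher by at least 2-fold were 3 genes (Myl2, Tcap and Tnni3) and lower by as much 0, where 11.1% of all genes were past 2-fold in either direction (8.31% higher and 2.75% lower). Summed over the 10 genes, the log2 ratio of CF-KI over control was -0.23 (-0.24 to -0.22). TMM scaling, which sets the bulk of genes to no change, lowered every ratio by 0.11 (shift of -0.11), turned no gene's direction and left Tnni3 just under 2-fold. The compared nuclei differed in mitochondrial share, with medians of 2.77% in CF-KI and 0.353% in the control. Among nuclei with 1 to 5% (1570 and 361), the log2 ratio was 0.95 for Myl2 and 0.61 for Tnni3, neither past 2-fold.

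Of the heavy chains, Myh6, the adult form, was at 4602 CPM in CF-KI nuclei and 5425 in control nuclei, 1.18-fold lower in CF-KI (log2 -0.24, -0.27 to -0.21). Myh7, the fetal ventricular form, was at 305.5 CPM (999 UMIs) and 182.6 CPM (1048 UMIs), 1.67-fold higher in CF-KI (log2 0.74, 0.62 to 0.87). The 2 neighbouring genes thus differed in opposite directions. Myh7 was found in 37.6% of CF-KI and 25.7% of control nuclei, and in 13.4% and 7.39% after thinning each barcode to 500 UMIs, against 0.643% and 0.541% of thinned fibroblast-like barcodes (1.19% and 0.948% unthinned). Median depths were 1734.5 and 2288 non-mitochondrial UMIs in nuclei and 754 and 958 in fibroblast-like barcodes. Few nuclei had much of it: 63 of the 1676 CF-KI and 62 of the 2206 control nuclei held at least 3 Myh7 UMIs. Myh7b, a slow-tonic heavy chain gene that carries miR-499, was at 194.8 CPM and 279.1 CPM, 1.43-fold lower in CF-KI (log2 -0.52, -0.65 to -0.39).

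Myl2, the ventricular regulatory light chain, differed most: 1862 CPM in CF-KI nuclei and 581.4 in control nuclei, 3.20-fold higher (log2 1.68, 1.62 to 1.74). Fibroblast-like barcodes, which should lack it, had 3653 and 651.7 CPM, more than the nuclei of the same library in each case, though in the control the ratio turned from log2 0.16 to -0.70 under TMM scaling and -0.42 without Malat1. Malat1 took 19.0% and 20.8% of UMIs in fibroblast-like barcodes, less than in nuclei. After thinning, 63.3% of CF-KI and 28.1% of control nuclei had a Myl2 UMI, against 83.9% and 29.6% of fibroblast-like barcodes (unthinned 97.0%, 72.5%, 95% and 49.6%). The thinned share in nuclei was thus not above that of fibroblast-like barcodes. Thinning kept Malat1, which left nuclei fewer other UMIs, so thinned shares run low in nuclei and cannot decide this alone. With levels that turn with the scaling in the control, Myl2 in nuclei is not read here as their own expression. The source of this RNA was not tested. Myl7, the atrial light chain, had 63 and 132 UMIs in nuclei, 19.3 and 23.0 CPM, with an interval that included no difference (log2 -0.26, -0.71 to 0.19). Its thinned share of nuclei, 1.31% and 1.27%, was also below that of fibroblast-like barcodes, 2.42% and 1.48% (unthinned 3.52%, 4.62%, 3.69% and 3.23%).

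On the thin filament, Tnnt2, the troponin subunit that binds tropomyosin, was at 7667 CPM in CF-KI and 6495 CPM in control nuclei, 1.18-fold higher (log2 0.24, 0.22 to 0.26). Tnni3, the inhibitory subunit, was at 2021 CPM and 974.2 CPM, 2.07-fold higher (log2 1.05, 1.00 to 1.10). It was at 2314 and 498.3 CPM in fibroblast-like barcodes. In CF-KI the log2 ratio of fibroblast-like barcodes over nuclei, 0.20, turned to -0.59 under TMM scaling and -0.31 without Malat1. Thinned shares for Tnni3 were 65.2% and 40.0% of nuclei against 68.6% and 23.4% of fibroblast-like barcodes (unthinned 96.8%, 86.9%, 84.2% and 41.0%). By thinned shares, which keep Malat1 and so run low in nuclei, the CF-KI nuclei thus did not stand above the CF-KI background. Tnnt2 did: 95.3% and 93.4% of thinned nuclei had a UMI, against 56.2% and 24.8% of fibroblast-like barcodes (unthinned 99.8%, 99.7%, 73.3% and 42.9%).

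Mybpc3, the myosin-binding protein whose loss causes cardiomyopathy, was at 572.2 CPM in CF-KI and 731.4 CPM in control nuclei, 1.28-fold lower in CF-KI (log2 -0.35, -0.43 to -0.28). Ttn, the molecular spring that spans from Z disc to M band, was at 14481 CPM and 23870 CPM, 1.65-fold lower (log2 -0.72, -0.74 to -0.71). The median CF-KI nucleus held 23 Ttn UMIs and the median control nucleus 44. Tcap, which anchors titin, went the other way, with 1517 CPM and 510.8 CPM, 2.97-fold higher in CF-KI (log2 1.57, 1.5 to 1.64). Fibroblast-like barcodes had 209.5 and 40.4 CPM of Tcap, far below the nuclei of their library. A Tcap UMI was found in 48.8% of thinned CF-KI and 21.3% of thinned control nuclei, against 10.1% and 2.02% of fibroblast-like barcodes (unthinned 83.2%, 57.3%, 16.4% and 4.29%). Of the 3 genes past 2-fold, Tcap was therefore the only one whose thinned nuclear shares stood above background in both libraries. Thinning kept Malat1, which took more of the UMIs of nuclei, so these shares alone do not set Tcap apart from the other 2. For Tnni3 in CF-KI and Myl2 in the control, the ratio of levels to this background turned with the scaling, as given above.

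Because the libraries fell in different clusters, the comparison was also made within each. In cluster 3 (1489 CF-KI and 142 control nuclei), the log2 ratio of Tcap was 1.34 (1.12 to 1.56), of Ttn -0.87 (-0.91 to -0.84) and of Myh7 0.61 (0.23 to 1.02). Myl2 and Tnni3 came down to 0.64 and 0.21 there, and Myl7 was at -1.12 (57 and 13 UMIs). In cluster 5 (180 and 2060 nuclei) the ratios were near those over all nuclei: Tcap 1.58, Ttn -0.78, Myh7 0.83, Myl2 1.53 and Tnni3 0.92. All 10 genes kept their direction in both clusters. The size of the Myl2 and Tnni3 differences in nuclei, over 1.5 times smaller as folds in cluster 3, is thus less certain than that of Tcap and Ttn.

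**Figure D2:**
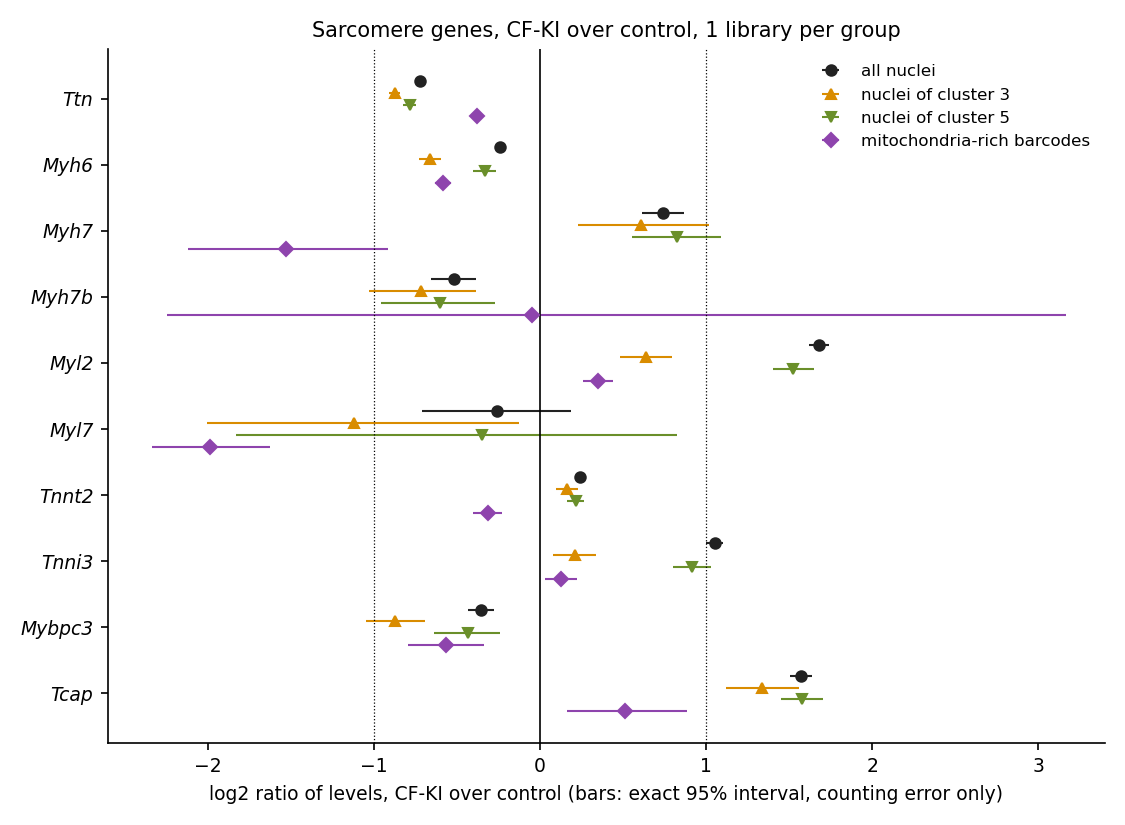
The log2 ratio of levels, CF-KI over control, for each gene in all nuclei, in the nuclei of clusters 3 and 5 and in mitochondria-rich barcodes; bars are exact 95% intervals of counting error and dotted lines mark 2-fold. Myl2, Tnni3 and Tcap lie further right in nuclei than in mitochondria-rich barcodes, but for Tnni3 in cluster 3 the intervals overlap (0.21 against 0.13). Myh7 lies on opposite sides, where the control value of the rich set rests on 1 barcode.

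Across cardiomyocyte-like barcodes, most sarcomere genes were higher where the mitochondrial share was higher. Myl2, Tnni3, Myh6, Ttn and Mybpc3 were higher between 20 and 50% than at or below 5% in both libraries. Myl2 in CF-KI was at 1319, 1913, 3938 and 14137 CPM in the bands of at most 1%, 1 to 5%, 5 to 20% and 20 to 50%, and in the control at 527, 988, 5373 and 10516 CPM. Tnnt2 moved least between the lowest and this highest band, with 7431 and 9236 CPM for CF-KI, 6425 and 9830 CPM for the control. Myh7b was lower at the top, with 242.5 and 55.6 CPM for CF-KI, 275 and 91.5 CPM for the control. Tcap in CF-KI was at 1277, 1540, 1526 and 1015 CPM, with no steady direction.

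The differences between the libraries also depended on the band. Ttn, Myh6 and Mybpc3 were lower in CF-KI in every band, Ttn by log2 ratios of -0.57, -0.81, -0.75 and -0.28 in the 4 bands up to 50%. Tcap was above the control in all 4 (1.32, 1.58, 0.93 and 0.36), and Myh7 in all but the band of 20 to 50% (0.70, 0.63, 1.22 and -0.55). Myl2 was higher at 1.32 and 0.95 in the lowest 2 bands, lower at -0.45 between 5 and 20%, and higher at 0.43 between 20 and 50%. Tnni3 took the same turns (0.91, 0.61, -0.42 and 0.23). Myl7 had 0 UMIs in the 106 CF-KI nuclei of the lowest band, which allows up to 10.7 CPM, against 16.2 CPM in the control. In the bands of 1 to 5% and 5 to 20% it was lower in CF-KI, by -1.81 and -3.23. Past 2-fold were Myl2 and Tcap higher and Myl7 lower in the lowest band (24% of all genes there), although the limit that the 0 UMIs of Myl7 allow does not itself reach 2-fold. In the other bands they were Tcap and Myl7 between 1 and 5% (13.1%), Myh7 and Myl7 between 5 and 20% (18.5%), and none of the 10 between 20 and 50% (14.7%).

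**Figure D3:**
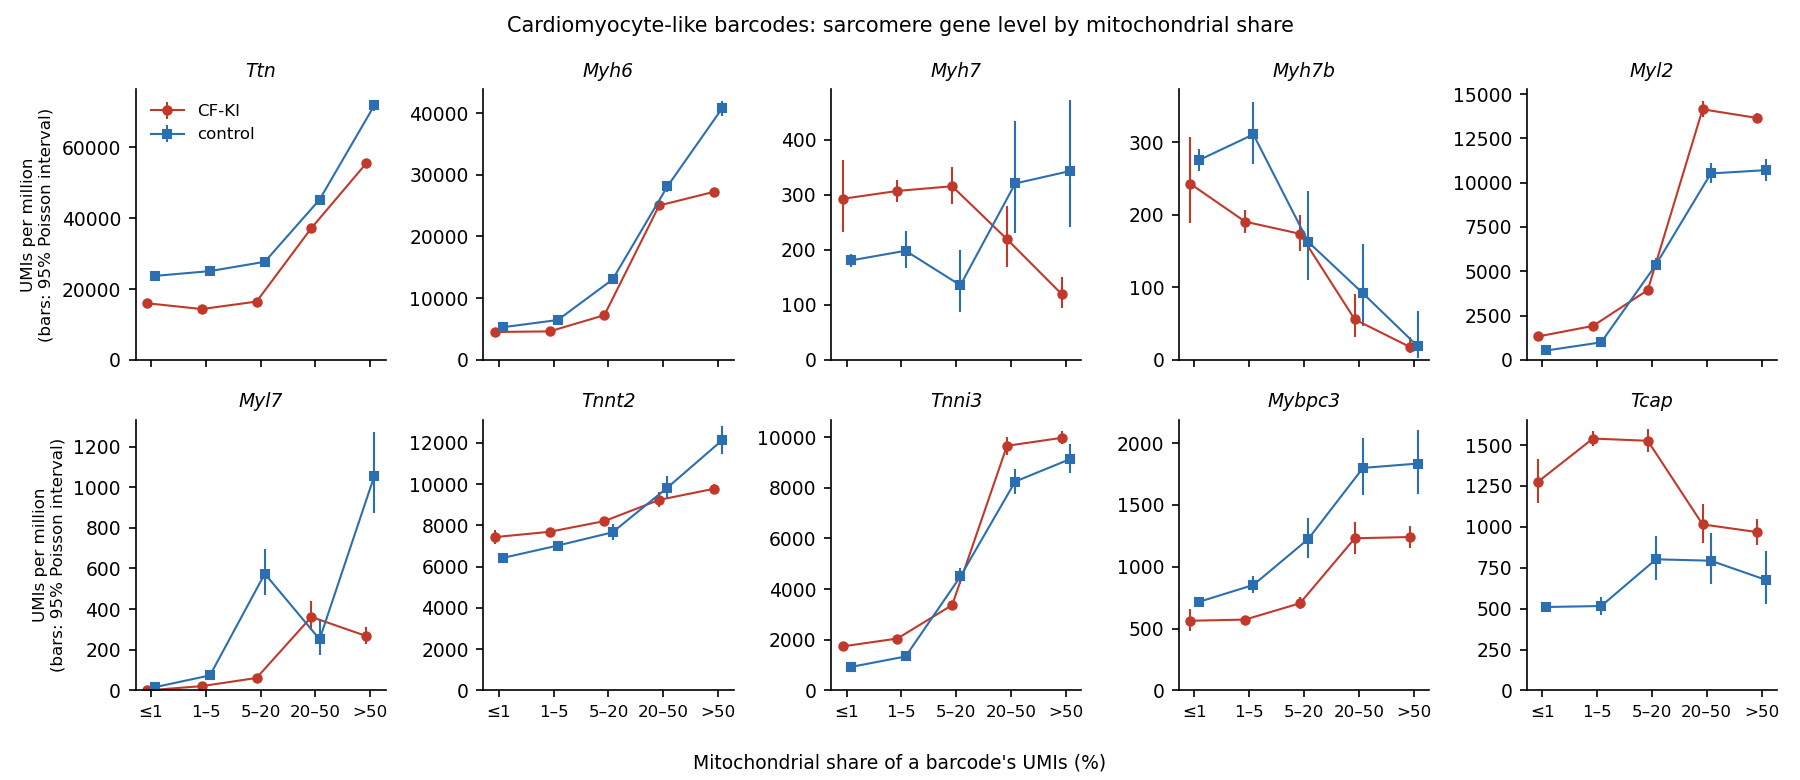
The level of each gene (CPM, linear axes from 0) in cardiomyocyte-like barcodes by the mitochondrial share of the barcode's UMIs, in 5 bands; bars are 95% Poisson intervals. Myl2, Tnni3 and Myh6 climb steeply above 5%, Myh7b falls, and the CF-KI curve of Tcap lies above the control in every band.

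The mitochondria-rich barcodes held a different mix of sarcomere RNA from the nuclei of the same library. Of the 10 genes, 6 were at least 2-fold higher in the rich set in CF-KI (Ttn, Myh6, Myl2, Myl7, Tnni3 and Mybpc3) and 2 at least 2-fold lower (Myh7 and Myh7b). In the control the same 6 were higher and Myh7b was lower. Among all genes, 57.3% were past 2-fold in CF-KI (32.6% higher and 24.7% lower) and 65.4% in the control (30.1% higher and 35.3% lower). TMM scaling shifted these ratios by -0.38 and -0.61, and leaving Malat1 out of the total by more. Under TMM and without Malat1, Mybpc3 was no longer past 2-fold higher in CF-KI (log2 0.73 and 0.33) and Tcap was past 2-fold lower (-1.04 and -1.43). In the control, Ttn (0.98 and 0.75) and Mybpc3 (0.72 and 0.49) were no longer past 2-fold higher. The sum of the 10 genes was 3.57-fold higher in the rich set in CF-KI and 3.8-fold in the control (log2 1.83 and 1.93, or 1.05 and 1.08 without Malat1).

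The light chains stood highest over nuclei in both libraries. Myl2 was at 13632 CPM in the CF-KI rich set against 1862 CPM in nuclei (7.32-fold, log2 2.87, 2.82 to 2.92), and at 10703 against 581.4 CPM in the control (18.4-fold, log2 4.20, 4.10 to 4.30). Myl7 was at 267.1 against 19.3 CPM in CF-KI (13.9-fold, log2 3.79, 3.37 to 4.24), and at 1056 against 23.0 CPM in the control (45.9-fold, log2 5.52, 5.15 to 5.89). Atrial-like barcodes were part of that: 11 of them (0.825% of the CF-KI rich set) held 61.6% of its Myl7 UMIs, and 15 (10.3% of the control rich set) held 95.6%. Nuclei had 0.358% and 2.72% atrial-like barcodes.

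Among the heavy chains, Myh6 was 5.91-fold higher in the rich set for CF-KI (27194 against 4602 CPM) and 7.52-fold higher for the control (40784 against 5425 CPM). Myh7 was 2.57-fold lower there in CF-KI, at 118.9 against 305.5 CPM (73 UMIs, log2 -1.36, -1.72 to -1.02). In the control it was at 342.9 CPM in the rich set (37 UMIs) and 182.6 CPM in nuclei, but 32 of the 37 UMIs (86.5%) came from 1 barcode. Without that barcode the control rich set had 5 UMIs of Myh7, 46.7 CPM, and the log2 ratio was -1.97 (-3.59 to -0.74), the direction seen in CF-KI. Myh7b was at 17.9 CPM (11 UMIs) in the CF-KI rich set, 10.9-fold below nuclei (log2 -3.44, -4.45 to -2.59). The control rich set had 2 Myh7b UMIs, with a log2 ratio of -3.91 (-6.96 to -2.06).

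The 2 troponin genes differed from each other. Tnni3 was at 9962 CPM in the rich set against 2021 CPM in nuclei of CF-KI (4.93-fold) and at 9128 against 974.2 CPM in the control (9.37-fold). Tnnt2 was at 9762 against 7667 CPM (log2 0.35) and at 12130 against 6495 CPM (log2 0.90), and the CF-KI ratio turned to -0.04 under TMM scaling and -0.43 without Malat1. Their share of the UMIs of the 10 genes also differed. Tnnt2 took 23.1% of them in CF-KI nuclei and 8.23% in the CF-KI rich set, with 16.6% and 8.16% for the control. Tnni3 took 6.08% and 8.40%, with 2.49% and 6.14% for the control.

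Ttn was 3.83-fold higher in the rich set in CF-KI (55394 CPM) and 3.01-fold in the control (71893 CPM). Mybpc3 was 2.16-fold (1238 CPM) and 2.51-fold (1835 CPM) higher. Tcap was the only gene besides Myh7 and Myh7b that was lower in the CF-KI rich set, at 965.9 against 1517 CPM (log2 -0.65, -0.78 to -0.53). In the control it was at 676.5 against 510.8 CPM (log2 0.41, 0.05 to 0.74), which turned to -0.20 under TMM scaling and -0.44 without Malat1. For scale, 2 reference genes are given: Mb (myoglobin, a cytoplasmic protein's messenger) was at 8592 and 8767 CPM in the rich sets against 1341 and 530.3 CPM in nuclei, and Ryr2, a very long gene, at 3154 and 4133 against 1953 and 2693 CPM.

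Between the libraries, the rich sets stood apart less than the nuclei did in Myl2, Tnni3, Tcap and Ttn, more in Myh6 and Myl7, and in the other direction in Tnnt2 and Myh7, of which the Myh7 value rests on 1 control barcode. Past 2-fold were 2 of the 9 genes with at least 20 UMIs, Myl7 and Myh7, both lower in CF-KI, where 20.9% of all 4619 genes were past 2-fold (16.3% higher and 4.59% lower). Myl7 was at 267.1 and 1056 CPM (log2 -1.98, -2.34 to -1.63), beside the atrial-like shares of the sets given above. Myh7 was at 118.9 and 342.9 CPM (log2 -1.53, -2.12 to -0.92), and without the 1 control barcode the ratio was 1.20 (-0.09 to 2.87). Myh6 (log2 -0.58), Mybpc3 (-0.57), Ttn (-0.38) and Tnnt2 (-0.31) were lower in CF-KI, and Tcap (0.51), Myl2 (0.35) and Tnni3 (0.13) higher, of which Tnni3 turned to -0.02 under TMM scaling. The difference between the log2 ratio of nuclei and that of the rich set was 1.33 for Myl2 (1.22 to 1.44), 1.06 for Tcap (0.70 to 1.41), 0.93 for Tnni3 (0.82 to 1.04) and -0.34 for Ttn (-0.38 to -0.31). Over all nuclei, Myl2, Tcap and Tnni3 thus stood further above the control in CF-KI nuclei than in CF-KI rich barcodes by more than counting error. In the nuclei of cluster 3 the ratio was 0.64 (0.48 to 0.80) for Myl2 and 0.21 (0.08 to 0.34) for Tnni3. The latter interval overlaps that of the rich sets (0.03 to 0.22), so for Tnni3 the contrast did not hold there.

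The chamber isoforms were compared in atrial-like barcodes (32 in CF-KI, 89 in the control) and ventricular-like barcodes (4198 and 2440) of any mitochondrial share, named without sarcomere genes. Myl7 was at 4588 CPM in CF-KI atrial-like barcodes (187 UMIs) and 40.7 CPM in ventricular-like ones (log2 6.82, 6.53 to 7.11), and at 1606 CPM (246 UMIs) and 23.1 CPM in the control (log2 6.12, 5.81 to 6.43). Past 2-fold were Myl7 and Myh6 higher and Myh7b lower in CF-KI, and Myl7 higher and Myh7b lower in the control. Myh7b rests on few UMIs: 2 in CF-KI atrial-like barcodes (log2 -1.73, -4.78 to 0.12) and 11 in control ones, 6 of them in 1 barcode (log2 -1.92, -2.93 to -1.08). Among control barcodes over 5% mitochondrial UMIs it was at 0.94 (-0.37 to 2.07), on 8 atrial UMIs that include the 6 of that barcode. At or below 5% in the control it was at -3.37 (-5.65 to -1.82), on 3 atrial UMIs. CF-KI atrial-like barcodes over 5% held 0 Myh7b UMIs. With so few UMIs, no chamber pattern is read from Myh7b. Of all genes, 64.8% were past 2-fold in CF-KI (20.1% higher and 44.6% lower) and 39% in the control (18% higher and 21% lower). Myl7 was thus strongly atrial in both libraries. Myl2 was lower in atrial-like barcodes, at 2822 against 4342 CPM in CF-KI (log2 -0.62, -0.90 to -0.36) and 594 against 1127 CPM in the control (log2 -0.92, -1.24 to -0.63). Its level in atrial-like barcodes was below that of fibroblast-like barcodes, 3653 and 651.7 CPM when scaled to non-mitochondrial UMIs. Among barcodes over 5% mitochondrial UMIs, the Myl2 gap was wider, with log2 ratios of -1.24 and -3.26 (61.7% and 32.1% of all genes past 2-fold). At or below 5% in the control, the Myl2 ratio was -0.38 (-0.82 to 0.02), an interval that included no difference. Myh6 was higher in atrial-like barcodes by log2 1.31 and 0.80, but at a like mitochondrial share the gap was smaller. Over 5% it was 0.91 (0.80 to 1.00) in CF-KI and -0.01 (-0.10 to 0.09) in the control, and at or below 5% it was 0.21 (0.10 to 0.32) in the control.

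As a share of the UMIs of both light chains, Myl7 made up 61.9% (56.2% to 67.4%, exact Clopper-Pearson) in CF-KI atrial-like barcodes and 73.0% (67.9% to 77.7%) in the control, a difference of -11.1 percentage points (-18.5 to -3.59). With at most 5% mitochondrial UMIs only 6 and 60 atrial-like nuclei were left, and the shares were 17.6% (3 of 17 UMIs) and 41.7% (35 of 84 UMIs), with a difference of -24.0 points (-41.9 to 3.88) that was not detectable at this depth. In ventricular-like barcodes the share was 0.928% and 2.01%, and in fibroblast-like barcodes 1.28% and 4.41%. The Myl7 share was below the control in CF-KI in each of these sets, fibroblast-like ones included. In atrial-like barcodes of any mitochondrial share, both light chains were higher in CF-KI, Myl2 by the larger ratio. These sets differed in make-up, with median mitochondrial shares of 28.9% (CF-KI) and 1.46% (control). Above 5%, Myl7 stood at 6421 CPM for CF-KI against 4809 for the control, and Myl2 at 3525 against 957. At or below 5%, the 6 CF-KI nuclei held only 3 Myl7 UMIs, against 35 in the 60 control nuclei. Whether the lower share reflects a difference in Myl7 was not tested. The essential light chains, fixed on the list of other sarcomere genes, were split likewise at any mitochondrial share. Myl4 made up 79.8% and 83.2% of Myl3 plus Myl4 in atrial-like barcodes and 2.11% and 3.20% in ventricular-like ones. At or below 5%, it made up 6.25% in the 6 CF-KI atrial-like nuclei and 66.4% in the 60 control ones, a difference of -60.1 points (-70.5 to -34.4). The atrial name of these 6 nuclei, given from other genes, is thus uncertain.

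**Figure D4:**
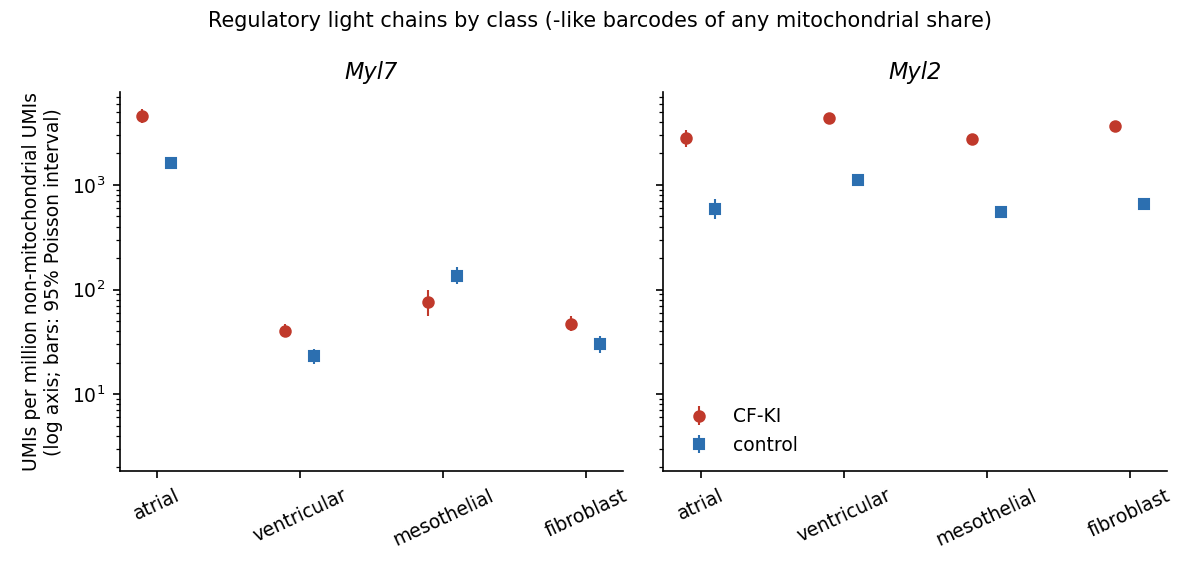
The level of Myl7 and Myl2 (CPM, log axis) in atrial-like, ventricular-like, mesothelial-like and fibroblast-like barcodes; bars are 95% Poisson intervals. Myl7 is highest in atrial-like barcodes, whereas Myl2 in atrial-like barcodes is not above its level in fibroblast-like ones.

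Of the UMIs of Myh6 and Myh7 in ventricular-like nuclei, Myh7 made up 6.21% (5.84% to 6.60%) in CF-KI and 3.29% (3.09% to 3.49%) in the control, a difference of 2.93 points (2.5 to 3.36). Over ventricular-like barcodes of any mitochondrial share, the shares were 3.11% and 2.77%, a difference of 0.336 points (0.111 to 0.559). The adult form was thus the main one in both libraries, and the size of the difference depended on the mitochondrial share. By band, the Myh7 share in cardiomyocyte-like barcodes was 6.08%, 6.24%, 4.18%, 0.868% and 0.436% in CF-KI, and 3.30%, 2.98%, 1.03%, 1.13% and 0.834% in the control. Fibroblast-like barcodes had 0.378% and 0.676%, below the share of nuclei. The share of the control rich set (0.834%) rests on the barcode with 32 of its 37 Myh7 UMIs, without which 5 were left. No UMI of Tnni1, the fetal slow troponin I, was counted in nuclei, so this depth leaves room for at most 0.917 CPM (CF-KI) and 0.523 CPM (control).

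Sarcomere RNA was also found in barcodes of classes that should lack it. Fibroblast-like barcodes (3709 and 3587) lay mostly in cluster 1 in CF-KI (2534, 68.3%) and in cluster 0 in the control (2630, 73.3%). In them the level of Myl2 was above that of nuclei in both libraries (log2 0.97 for CF-KI and 0.16 for the control), but for the control the direction turned with the scaling (-0.70 under TMM, -0.75 by median of ratios and -0.42 without Malat1). That of Myh7 was far below it (-4.50 and -4.40). Relative to nuclei, 1 gene was at least 2-fold higher and 6 lower in CF-KI fibroblast-like barcodes, against 0 and 7 for the control, where 55.3% of all genes (44.3% higher and 11% lower) and 60.4% (47.6% higher and 12.8% lower) were past 2-fold. The gene past 2-fold higher was Myl7 (log2 1.30, 0.86 to 1.74), which came to 0.51 under TMM scaling. TMM shifted these ratios by -0.79 and -0.87. Of the genes lower in both libraries, Ttn was at -1.80 and -3.75, Tnnt2 at -2.21 and -3.52, Mybpc3 at -1.54 and -2.89, Tcap at -2.86 and -3.66 and Myh7b at -4.99 and -4.13. Myh6 was at -0.37 and -2.09, past 2-fold in the control, and in CF-KI too under TMM scaling (-1.16).

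Against the mitochondria-rich set, the genes lay closer together in fibroblast-like barcodes than against nuclei, apart from Myh7b in the control. All 10 genes were at least 2-fold lower in CF-KI, between log2 -1.54 (Myh7b) and -3.74 (Ttn), and 9 of 10 in the control, between -4.04 (Myl2) and -5.34 (Ttn), where 51.6% of all genes (39.6% higher and 12.1% lower) and 65.3% (50.9% higher and 14.4% lower) were past 2-fold. As a percentage of the level in nuclei, the CF-KI fibroblast-like level ran from 3.15% (Myh7b) to 245.5% (Myl7), and as a percentage of the rich level from 7.49% (Ttn) to 34.3% (Myh7b). The highest percentage was thus 77.9 times the lowest against nuclei and 4.58 times against the rich set. In control fibroblast-like barcodes it was 27.6 and 34.7 times. The second value rests on Myh7b (85.7% of the rich level), while the other 9 genes ran from 2.47% (Ttn) to 6.09% (Myl2). In CF-KI endothelial-like barcodes these spreads were 37.1 and 2.48, and in control endothelial-like barcodes 18.8 and 2.29. Over the 21 pairs of a class and a library, the spread was narrower against the rich set in 17 and wider in 4. The 4 were macrophage-like barcodes of both libraries and control fibroblast-like and airway epithelial-like barcodes. In control fibroblast-like and macrophage-like barcodes the highest value was that of Myh7b, which had 2 UMIs in the control rich set.

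**Figure D5:**
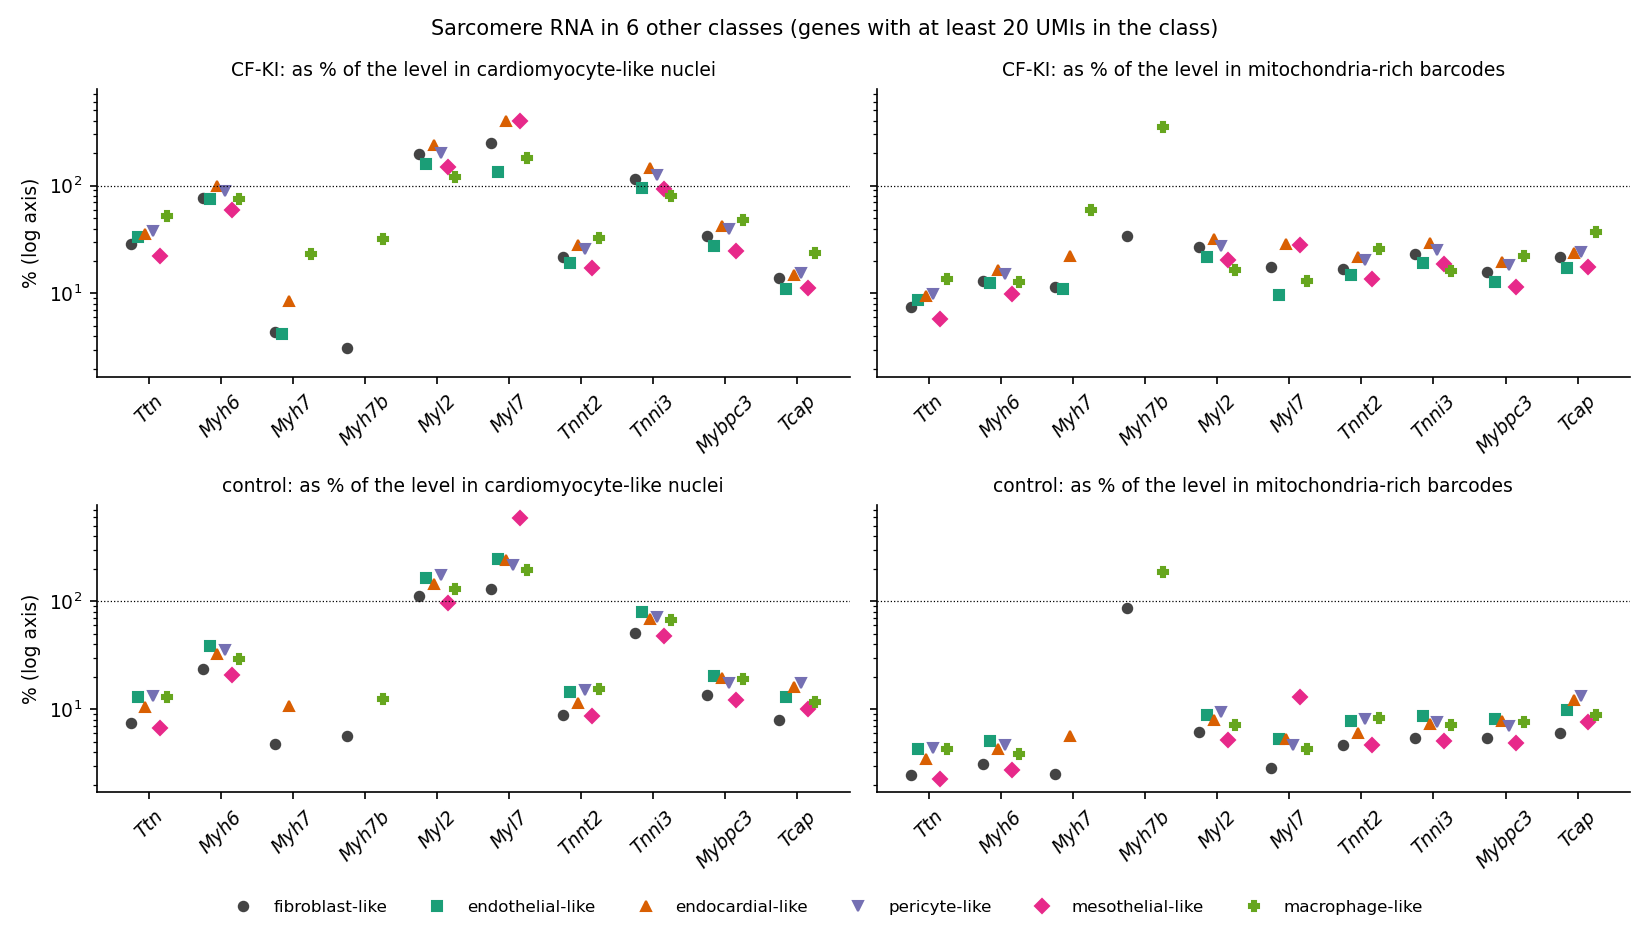
The level of each sarcomere gene in 6 other classes as a percentage of its level in nuclei (left) and in mitochondria-rich barcodes (right) of the same library, on log axes, for genes with at least 20 UMIs in the class; the dotted line marks 100%. Against nuclei, Myl2 and Myl7 lie near or above 100% and Myh7 far below it. Against mitochondria-rich barcodes the genes lie closer together, except for Myh7b in macrophage-like barcodes and in control fibroblast-like ones.

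The level of this RNA in other classes was higher in CF-KI for most genes. Ttn was at 4148 CPM in CF-KI and 1775 CPM in control fibroblast-like barcodes (log2 1.22, 1.18 to 1.27), and between 3249 and 7504 CPM in CF-KI against 1606 to 3170 CPM in the control over the 6 classes with the most barcodes in each library. Smaller classes broke this order: B cell-like barcodes (75 and 153) had 4797 and 5239 CPM of Ttn, lower in CF-KI, and CF-KI erythroid-like ones (83) had 1121 CPM. Myl2 was at 3653 and 652 CPM in fibroblast-like (log2 2.49, 2.43 to 2.55), 2939 and 945 in endothelial-like, 4392 and 841 in endocardial-like, 3725 and 1011 in pericyte-like, 2775 and 554 in mesothelial-like and 2257 and 760 in macrophage-like barcodes. All 6 classes had more Myl2 in CF-KI than any of the 6 in the control. Tcap was at 209.5 and 40.4 CPM and Tnni3 at 2314 and 498.3 CPM in fibroblast-like barcodes. Of all UMIs of a gene in the kept barcodes, 26.5% of Ttn, 54.8% of Myl2, 48.8% of Tnni3 and 11.1% of Myh7 lay outside cardiomyocyte-like clusters in CF-KI, and 13%, 50.3%, 39.3% and 9.79% in the control. Mitochondrial RNA was also higher in CF-KI, and its part in these values was not tested. In fibroblast-like barcodes with at most 5% mitochondrial UMIs (54 and 1467), the 10 genes made up 1.49% and 0.551% of non-mitochondrial UMIs. At any mitochondrial share they made up 1.58% and 0.496%.

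Among the 6 classes of CF-KI, macrophage-like barcodes had the highest levels of the minor heavy chains. They held Myh7 at 70.5 CPM (59 UMIs), where the other 5 classes had 10.8 to 41.4 CPM, and Myh7b at 62.1 CPM (52 UMIs), where the others had 5.65 to 11.7 CPM. The small adipocyte-like class came nearer, with 52.6 CPM (8 UMIs) and 26.3 CPM (4 UMIs). How the Myh7 and Myh7b UMIs spread over the 524 CF-KI macrophage-like barcodes was not counted. Of the 15209 UMIs of the 10 genes in that class, 2775 lay in the 35 barcodes with at most 5% mitochondrial UMIs. In the control, macrophage-like Myh7b (34.3 CPM, 38 UMIs) was also the highest of the 6, while Myh7 (12.6 CPM) was not. Their Ttn level, 7504 CPM, was also the highest of the 6 classes, while their Myl2 level was the lowest. As shares of the UMIs of the 10 genes, Ttn made up 41.3% and Myl2 12.4% in CF-KI macrophage-like barcodes, against 26.2% and 23.1% in CF-KI fibroblast-like ones and 43.6% and 5.60% in CF-KI nuclei. Mesothelial-like barcodes, which cover the heart surface, differed in Myl7: 136 CPM in the control (117 UMIs) against 30.1 to 56.0 CPM in the other 5 classes. There 5 barcodes with at least 3 UMIs each were set aside, and 90.2 CPM (70.9 to 113) were left over 75 UMIs. In CF-KI mesothelial-like barcodes Myl7 was at 75.8 CPM (49 UMIs), inside the range of the other classes, 26.0 to 76.9 CPM.

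Of 43 other genes of the sarcomere, 32 had at least 20 UMIs in the nuclei of both libraries together, 21 of them higher and 11 lower in CF-KI, with a median log2 ratio of 0.15. Under TMM scaling 16 were higher and 16 lower. Past 2-fold were 4 higher and 1 lower, where 11.1% of all genes were. The highest were Actc1, the cardiac actin (1276 and 472.1 CPM, log2 1.43), Cryab, a Z disc chaperone (511 and 195 CPM, 1.39) and Myl3, the ventricular essential light chain (1658 and 671 CPM, 1.31). All 3 were also higher in CF-KI than in control fibroblast-like barcodes, Actc1 at 1481 and 333.4 CPM. Among the lowest were Mybphl (3 and 23 UMIs, log2 -2.13, -4.51 to -0.40) and Myom2, which crosslinks thick filaments at the M band (199 and 292 CPM, -0.55).

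In the rich set against nuclei, the essential light chains were again among the highest. Myl4 was first in both libraries, at 490.3 against 26.6 CPM in CF-KI (log2 4.20) and 1918 against 36.8 CPM in the control (5.71). Next came Tnnt1 in CF-KI (14 and 9 UMIs, log2 3.05, 1.74 to 4.44) and Acta1, the skeletal actin, in the control (4.03), and then Myl3 at 2.59 and 3.74. The lowest were Mypn, a Z disc protein (-1.06 and -0.96), and Lmod2, which elongates thin filaments (-0.85 and -0.77), with Fhod3 (-0.30) in CF-KI and Myom3 in the control, which had 0 UMIs in the rich set and 25 in nuclei. Of the 43 genes, 15 of 30 with enough UMIs were past 2-fold higher and 1 lower for CF-KI (57.3% of all genes past 2-fold), and 19 and 1 of 31 for the control (65.4%). Between the rich sets, Myl4 (log2 -1.97), Acta1 (-1.70) and Myl1 (-1.44) were lowest in CF-KI, and Fhod3 (0.52), Myom2 (0.38) and Lmod2 (0.22) highest. Myl4, an atrial gene, was lower in the CF-KI rich set beside the lower share of atrial-like barcodes there.

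Over 31 sets of class and library, the genes whose log2(CPM + 1) was most like that of the 10 genes summed were, of 7888 genes, Atp2a2, the calcium pump of the sarcoplasmic reticulum (Pearson r 0.991), Pln, its inhibitor (0.980), Nebl (0.977), Cmya5 (0.974), Trdn (0.973), Myom2 (0.973), Hspb7 (0.968) and Myoz2 (0.968). The median r over these genes was -0.117. Atp2a2, Pln and Trdn were among the markers that named the classes, and the sets share libraries and their depth. They may also share free RNA, which was not measured. Of the 10 genes themselves, each a part of the sum, Myh6 (0.982), Ttn (0.982), Tnnt2 (0.969) and Mybpc3 (0.968) followed it most closely. Tcap (0.907), Tnni3 (0.899), Myh7 (0.842) and Myl2 (0.791) came next, and Myl7 (0.464) and Myh7b (0.460) last.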

How the data were processed

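The deposited values are UMI counts, whole numbers for each gene in each barcode per the file headers, made by the authors with Cell Ranger 6.1.1 and the build mm10 per the submitters' processing notes. The settings of cell calling and of intron counting are not given in the sources used here. Deposited barcodes held at least 500 UMIs. Features that share a symbol were summed (32285 to 32245).

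Barcodes with at least 200 genes were kept. Scrublet (scanpy 1.11.5) called 2286 CF-KI barcodes (15.2%) and 338 control barcodes (3.00%) as doublets, which were removed, leaving 12681 and 10858. Both libraries were clustered together with leidenalg 0.10.2 on 2000 variable genes without sarcomere genes (30 principal components, 15 neighbours, resolution 0.8). Clusters were named from 20 marker lists without the 10 genes, with at least 3 markers raised. The scoring rule for clusters and that for atrial sub-clusters were set after seeing the data. The 10 genes, the lists and the comparisons were chosen with earlier results of these data known. All 10 genes are named, and of the other sarcomere genes the 3 highest and 3 lowest ratios with at least 20 UMIs, plus the 8 genes most like the sum. A result that this rule would name is not reported here. Mitochondria-rich barcodes came from cardiomyocyte-like or unnamed clusters.

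With 1 library per group no test was run. Levels have exact Poisson intervals, ratios conditional exact binomial ones, shares Clopper-Pearson ones and differences of shares square-and-add (Newcombe) ones, at 95%, with scipy 1.17.1 in Python 3.11.15. A count of 0 is given the level of 3 UMIs as its limit. In R 4.3.3, edgeR 4.0.16 gave the TMM factors, and DESeq2 1.42.0 those of the median of ratios. Ratios and intervals were checked on simulated counts. Alternatives were at least 500 genes, doublets kept, resolutions of 0.4 and 1.5, separate clustering, sarcomere genes among the variable genes, mitochondrial limits of 1% and 20%, other scalings and thinning to 500 UMIs. Scaling without Malat1, single clusters, single bands, ventricular nuclei alone and fibroblast-like barcodes with at most 5% were added after seeing the data. Positions are those of GENCODE vM21 on GRCm38, and microRNA and promoter sequences those of RefSeq on GRCm38.p6.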

Additional observations from a re-analysis of the deposited data

Results flagged for a closer look

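For 3 genes, a ratio within a library had opposite signs in CF-KI and control. With 1 library each, the difference between them was not tested. Myh7 in mitochondria-rich barcodes over cardiomyocyte-like nuclei had a log2 ratio of -1.36 in CF-KI and 0.91 in the control, where 32 of the 37 control UMIs came from 1 barcode and the ratio without it was -1.97. Tcap over the same sets had one of -0.65 (CF-KI) and 0.41 (control), whose ratio without Malat1 in the total was -0.44. Tnni3 in fibroblast-like barcodes over cardiomyocyte-like nuclei had a log2 ratio of 0.20 (CF-KI) and -0.97 (control). Without Malat1 the CF-KI ratio was -0.31.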

How the results depend on the processing

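With 1 library per group, every value compares these libraries alone. Depth limits most the genes with few UMIs: Myh7b and Myh7 in the control rich set (2 and 37 UMIs) and Myl7 in nuclei. No paired analysis was possible because each group has 1 library. Where a value below moved, the cause was not tested.

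The log2 ratio of the 10 genes summed in nuclei, CF-KI over control, was -0.23. It was -0.22 after thinning, -0.21 with at most 1% and -0.16 with at most 20% mitochondrial UMIs, -0.26 per all UMIs, -0.34 under TMM, median-of-ratios scaling or without Malat1, -0.37 between 1 and 5%, -0.46 in cluster 3 and -0.30 in cluster 5. The number of genes past 2-fold, 3, was 2 under TMM, median-of-ratios scaling, without Malat1, between 1 and 5% and in either cluster. Under these scalings and in cluster 5 they were Myl2 and Tcap. Between 1 and 5% and in cluster 3 they were Tcap and Myl7, the latter lower in CF-KI (-1.81 and -1.12) and not past 2-fold over all nuclei. The share of all genes past 2-fold was not counted under these scalings or within a cluster.

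The ratio of the rich set over nuclei, 1.83 (CF-KI) and 1.93 (control), moved with the scaling. For CF-KI it was 1.82 with separate clustering, 1.91 thinned, 1.74 with nuclei up to 20%, 1.45 under TMM, 1.49 by median of ratios, 1.75 with barcodes over 20%, 1.05 without Malat1 and -0.0835 per all UMIs, where mitochondrial UMIs enter the total. For the control it was 2.02 thinned, 1.90 up to 20%, 1.32 under TMM, 1.36 by median of ratios, 1.68 over 20%, 1.08 without Malat1 and 0.0838 per all UMIs.

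The ratio of fibroblast-like barcodes over nuclei, -1.07 (CF-KI) and -2.98 (control), stayed below 0 throughout. For CF-KI it was -1.28 with at least 500 genes, -0.93 with doublets kept, -1.09 with separate clustering, -0.99 thinned, -1.17 with nuclei up to 20%, -1.30 per all UMIs, -1.86 under TMM, -1.90 by median of ratios, -1.58 without Malat1, and -1.18 or -1.16 with fibroblast-like barcodes up to 20% or 5%. For the control, in that order without separate clustering, it was -2.94, -2.93, -2.83, -3.00, -3.08, -3.85, -3.90, -3.56, and -3.06 or -2.83.

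The Myh7 share of ventricular-like nuclei differed by 2.93 points, by 2.37 up to 20% and by 0.336 at any mitochondrial share. The Myl7 share of atrial-like nuclei kept its direction wherever a value was had. Separate clustering gave no value for either share, and the limit of 1% none for Myl7.

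Single genes turned as follows. Over nuclei in the CF-KI rich set, Tnnt2 was at -1.57 per all UMIs, -0.0357 under TMM and -0.43 without Malat1, and Mybpc3 at -0.80 per all UMIs. In the control rich set, per all UMIs, Ttn was at -0.25, Myh7 at -0.93, Tnnt2 at -0.94, Mybpc3 at -0.52 and Tcap at -1.44, and Tcap was at -0.20 under TMM, -0.16 by median of ratios and -0.44 without Malat1. In CF-KI fibroblast-like barcodes Tnni3 was at -0.0581 with at least 500 genes, -0.0360 with nuclei up to 20%, -0.0328 per all UMIs, -0.59 under TMM, -0.63 by median of ratios, -0.31 without Malat1 and -0.39 with fibroblast-like barcodes up to 5%. In control ones Myl2 was at -0.17 up to 20%, -0.70 under TMM, -0.75 by median of ratios and -0.42 without Malat1, and Myl7 at -0.11 thinned, -0.42 up to 20%, -0.48 under TMM, -0.53 by median of ratios and -0.19 without Malat1. Myl7 in nuclei, CF-KI over control, whose interval included 0, went from -0.26 to 0.0963 in ventricular nuclei alone. Of the values of single genes that did not turn beyond counting error, 451 were within it of the reported value and 285 kept their direction beyond it. Myl7 had no ratio over CF-KI nuclei with at most 1% or in CF-KI fibroblast-like barcodes up to 5%, and Myh7b none in rich barcodes with at least 500 genes.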
